A study of Talpa occidentalis and Mus musculus with 35 samples.

Results

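Ion channel genes of the mole Talpa occidentalis were described from the gene models of the genome annotation deposited with a gonad RNA-seq series. A gene line counted as a member when its symbol, without any copy or low-confidence suffix, belonged to the KCN potassium channels (letters A to V), the SCN sodium channels, the CACNA, CACNB and CACNG calcium channel subunits, HCN, the TRPA, TRPC, TRPM and TRPV channels, PIEZO, ASIC, P2RX or CLCN. Of 23336 gene lines 192 met that rule, and they carried 159 of the 16196 symbols. The families as listed here hold 172 symbols in 20 families, so 13 had no gene line under their own name.

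The series holds 35 gonad libraries in 16 groups, 19 from wild-type moles and 16 from mice. Mole groups were ovotestis and testis at embryonic day 15, and, at postnatal day 7 and in adults, the ovarian part of the ovotestis, its testicular part, and testis. Mouse groups were ovaries of Fgf9 mutants and of their wild type at embryonic day 13.5, on a background the labels give as C57BL, and wild-type CD1 ovary and testis at embryonic day 13.5, at postnatal day 7 and in adults of 10 weeks. The processed file describes the mole genome and holds no value of any library, so every number below is about gene structure and position, and no expression level was compared.

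Ion channels are membrane proteins that open a selective path for ions. Voltage-gated sodium and calcium channel alpha subunits are single long chains that fold into several similar repeats, whereas most potassium channels, HCN and TRP channels assemble from shorter separate subunits, and KCNE, SCNxB, CACNA2D, CACNB and CACNG proteins are accessory subunits that tune a pore. Potassium channels set resting voltage, calcium channels couple voltage to contraction, secretion and gene activity, and TRP, PIEZO, ASIC and P2RX channels report heat, chemicals, stretch, acid and extracellular ATP.

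For each symbol the locus with the highest deposited score is called its best locus. An exon here is a coding part, coding length is the sum of the coding parts, and span is the distance from the start to the end of the gene line. The deposited score stands on each transcript line beside an interval of a named reference transcript. No source at hand says what it counts, so it was used only to rank loci and, divided by the length of that interval, as a score per reference base. Best loci of ion channel genes had a median of 7 coding exons (quartiles 3 and 15), against 8 (4 and 13) over all symbols. Their median coding length was 1752 bases, against 1308 over all symbols, and their median span was 17.7 kb, against 13.3 kb.

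Best loci of ion channel genes ran from 1 to 53 exons and from 0.255 to 583 kb in span, against 1 to 286 exons and 0.0750 to 857 kb over all symbols. Alpha-1 subunits of voltage-gated calcium channels, the pore-forming CACNA1 proteins, had a median of 44 exons and 5622 coding bases over 9 genes. The CACNA2D subunits, which carry calcium channels to the membrane, had a median of 35 exons and the longest median span, 211 kb over 4 genes. Sodium channel alpha subunits had a median of 21 exons and a span of 52.4 kb over 10 genes, with 15 to 25 exons each. At the other end, KCNE subunits had a median of a single exon and 378 coding bases, and the KCNJ inward rectifiers, which hold cells near the potassium potential, had a median of 2 exons, 1224 coding bases and a span of 3.10 kb over 15 genes.

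**Figure D1:**
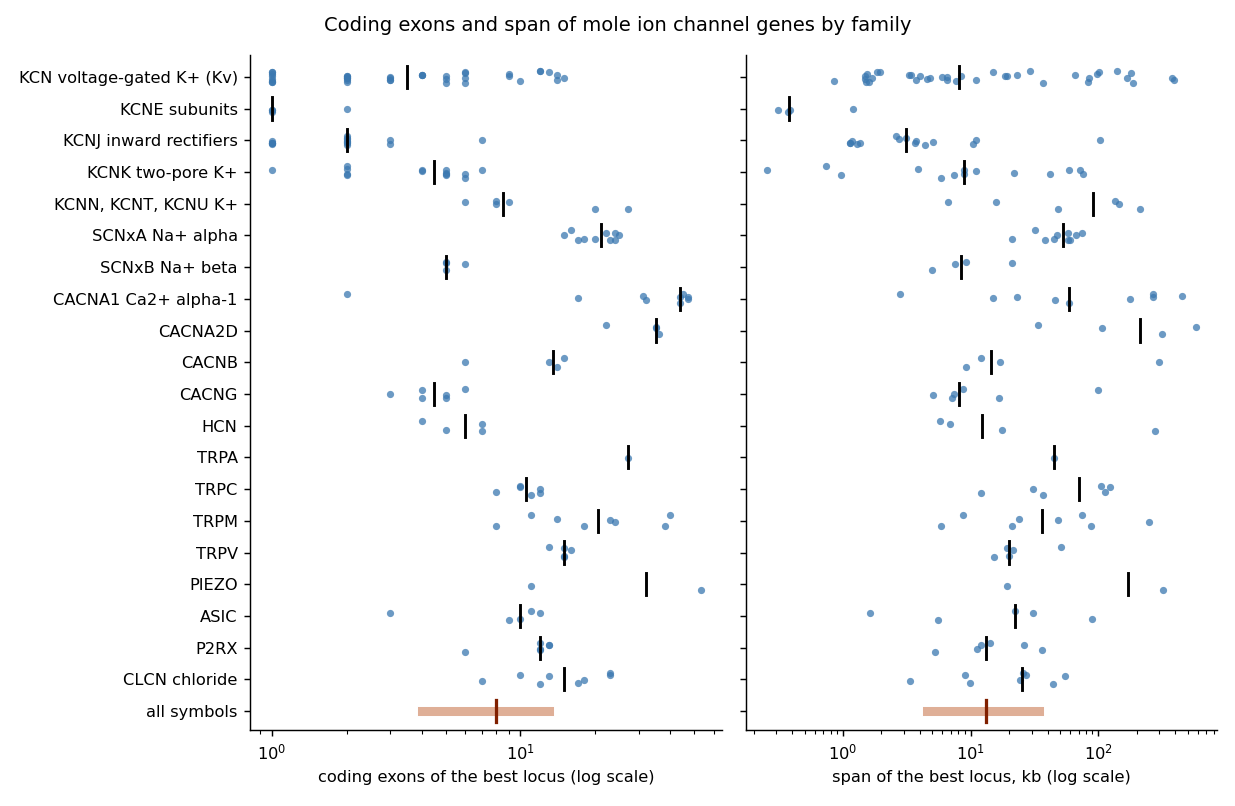
Coding exons (left, log scale) and span in kb (right, log scale) of the best mole locus of each ion channel gene, 1 point per gene, by family; black ticks are family medians, and the bottom row gives the median and quartiles over all symbols. Calcium channel alpha-1 subunits stand at a median of 44 exons and KCNE subunits at 1.

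Within the 38 voltage-gated potassium channel genes (Kv) the structures ranged from 1 exon to the 15 exons of KCNH8, an ether-a-go-go type subunit. Spans of the same family ran from 0.846 kb for KCNA7, a Shaker-type subunit, to 388 kb for KCNH7. A long span did not need many exons: the Shab-type subunit KCNB2 had 2 exons and a span of 375 kb, of which a single intron made up 345 kb. Among the K2P channels, which carry background potassium current, KCNK10 had the most exons at 7 and KCNK13 the longest span at 76.0 kb, with 2 exons. KCNK9 had the fewest exons and the shortest span of that family, 1 exon of 255 bases.

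Calcium-activated, sodium-activated and pH-activated potassium channels (KCNN, KCNT and KCNU) held between the 6 exons of KCNN4, the intermediate-conductance channel, and the 27 exons of KCNT2, which also had the longest span at 212 kb. In the inward rectifiers KCNJ6 had a span of 104 kb with 3 exons, against spans from 1.14 kb in KCNJ10 to 11.0 kb in KCNJ4 for the others. KCNJ4 was the exception in exon number, with 7. Its shortest gap between coding parts was 35 bases, and its score per reference base, 0.845, was the lowest of the family. Among the KCNE subunits, KCNE4 had 2 exons and a span of 1.20 kb, while KCNE3 was the shortest at 0.309 kb.

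Among the sodium channel alpha subunits SCN3A, a neuronal form, had the most exons, 25, and SCN9A the longest span, 74.1 kb. SCN8A had the fewest exons, 15, and SCN4A, the skeletal muscle form, the shortest span, 21.1 kb, and both are spread over several gene lines, as described below. Of the beta subunits, which modify sodium channel gating, SCN4B had 6 exons and the other 3 had 5, and SCN3B had a span of 20.96 kb. Calcium channel alpha-1 genes ran from CACNA1B, with 2 exons and 2.79 kb, to CACNA1A and CACNA1D with 47 exons each, and CACNA1C had the longest span, 449.7 kb. CACNA2D3 had the longest span of all ion channel genes, 583 kb, and CACNA2D1 the most exons of its family, 36, whereas CACNA2D4 had 22 exons and 33.8 kb. CACNB2 stood apart from the other beta subunits, with 301 kb against 9.13 kb in CACNB3, and CACNG2 from the other gamma subunits, with 99.7 kb against 5.07 kb in CACNG5. CACNB1 had the most exons of the beta subunits, 15, and CACNB4 the fewest, 6, and among the gamma subunits CACNG1 had the most, 6, and CACNG3 the fewest, 3.

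HCN channels, which carry the pacemaker current, had 4 exons and a span of 5.78 kb in HCN2, 7 exons in HCN3 and 5 exons and 17.7 kb in HCN4. Among TRP channels, TRPM7 had the most exons, 40, and TRPM3 the longest TRPM span, 251 kb, while TRPM5, the channel of taste cells, had the fewest exons, 8, and the shortest span, 5.91 kb. TRPC2 and TRPC6 had 12 exons and TRPC7 had 8, and TRPC spans ran from 12.04 kb in TRPC2 to 123 kb in TRPC5. TRPV genes differed little in exon number, with 13 exons in TRPV6, 16 in TRPV4 and 15 in the other 3, and spans from 15.2 kb in TRPV2 to 51.5 kb in TRPV6. PIEZO2 had 53 exons, the highest number of any ion channel gene, over 323 kb, against 11 exons over 19.3 kb in PIEZO1. ASIC genes ran from 3 exons and 1.63 kb in ASIC3 to 12 exons in ASIC5 and 88.6 kb in ASIC2. P2RX6 had 6 exons and 5.27 kb, while P2RX3 and P2RX5 had 13 exons and P2RX7 the longest span, 36.1 kb. In the CLCN family, chloride channels and chloride-proton exchangers, CLCN2 and CLCN6 had 23 exons and CLCN7 had 7 over 3.35 kb, and CLCN5 had the longest span, 54.7 kb.

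A single coding exon was found in 17 of 159 ion channel genes (10.7%), against 8.77% of all symbols. Over every locus in place of the best ones the order turned, with 10.4% of the loci of ion channel genes and 20% of all loci. The 17 were 8 Kv genes, 5 KCNJ genes, 3 KCNE genes and 1 K2P gene, and no gene of the other 16 families. In the mouse annotation (GENCODE M21, longest coding transcript) 14 of these 17 also had a single coding exon (82.4%), against 636 of 960 (66.2%) over all symbols. Counted from the mouse the order turned: of 19 ion channel genes with a single coding exon there, 14 had one in the mole (73.7%), against 636 of 834 (76.3%). The 14 were KCNA1, KCNA2, KCNA4, KCNA5, KCNA6, KCNA10, KCNS3, KCNE1, KCNE2, KCNE3, KCNJ2, KCNJ10, KCNJ11 and KCNJ16. Lengths were close in most of them: KCNA1 had 1485 coding bases in the mole and 1485 in the mouse, KCNA2 had 1497 and 1497, and KCNE1 had 387 and 387. The other 3, KCNA7, KCNJ1 and KCNK9, had 2 exons in the mouse, and of these KCNA7 had 57.7% and KCNK9 21.1% of the mouse coding length, while KCNJ1 had 97.2%.

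Several gene lines carried the same symbol in 26 of 159 ion channel genes (16.4%), against 14.6% of all symbols. That order turned when a locus needed at least 50% of the best score, with 5.66% of ion channel genes and 8.11% of all symbols. Of the 26, 20 had 2 loci, 5 had 3, among them CACNA1C, PIEZO1, SCN4A and TRPA1, and CACNA1I had 4. The 33 extra loci were then sorted by the interval of the reference transcript each one named. An extra locus was called a next piece in line when it lay on the same scaffold and strand as the best locus with no other symbol's gene wholly between them, overlapped its reference interval by at most 10% of the shorter interval, and followed it in the order the reference transcript has. It was called a same-interval locus when the overlap reached 50%. Positions were compared as given, also where the loci named different reference transcripts of the gene, whose positions can be counted differently. Next pieces made up 20 of the 33 extra loci of ion channel genes (60.6%), against 14.2% of 5294 extra loci over all symbols. Same-interval loci made up 7 of 33 (21.2%), against 77.7% over all symbols. A next piece was found for 16 of 159 ion channel genes (10.1%), against 4.08% of all symbols, and in all of the 16 but CACNA1I every further locus was such a piece. The shares differed by mouse coding length: 28.6% of 42 ion channel genes of at least 3000 bases had a piece, against 13.3% of all symbols of that length. From 2000 to 3000 bases it was 2.86%, against 5.96%, and from 1000 to 2000 bases 3.12%, against 2.63%. Without next pieces, 6.92% of ion channel genes had several loci, against 11.0% of all symbols. The later mole assembly MPIMG_talOcc4v2.1 names each of these 16 genes once. It also names once 25 of the 26 genes with several loci and 151 of all 159 ion channel genes, and 0 more than once. Being named once there therefore does not set the 16 apart, and the share over all symbols was not counted.

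**Figure D2:**
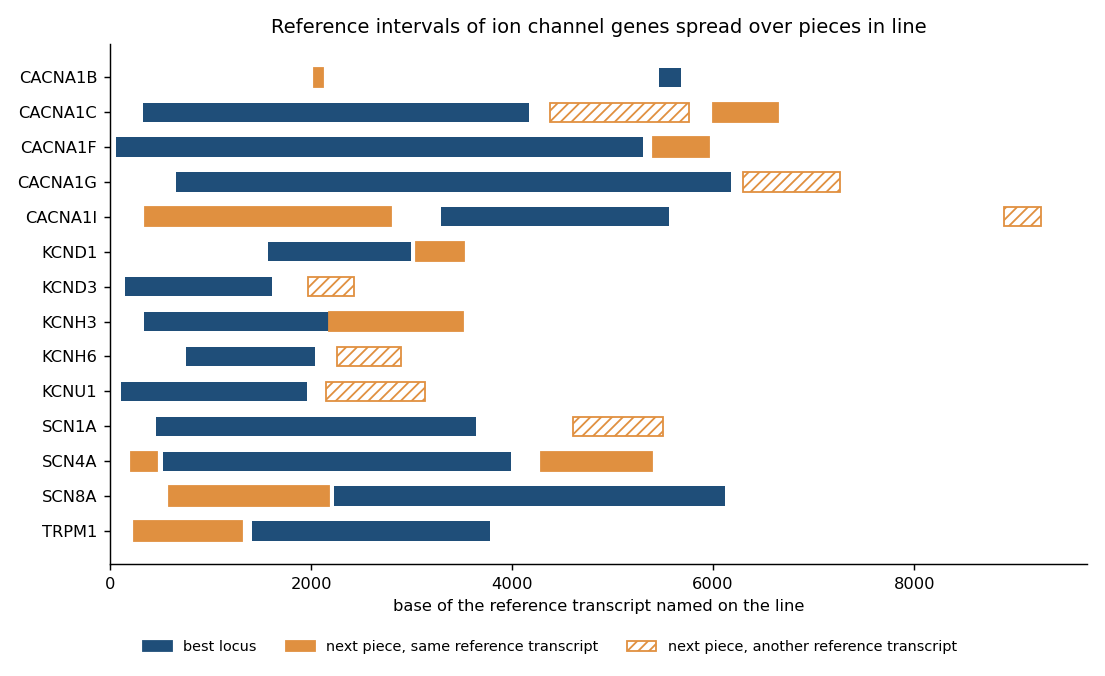
Interval of the reference transcript (bases, x axis) covered by the best mole locus (dark blue) and by the next pieces in line (orange; hatched where the piece names another reference transcript, whose positions can be counted differently) for 14 of the 16 ion channel genes with such pieces. The best locus of CACNA1I lies between a piece of 14 exons and one of 3 exons.

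Calcium and sodium channel alpha subunits made up 9 of the 16. CACNA1C, the cardiac and neuronal L-type channel, had a best locus of 31 exons and 4350 coding bases on scaffold 34 of talOcc3 from 8228286 to 8678013. Its pieces of 11 and 4 exons followed on the same strand, at 31.0 kb and 49.2 kb from the best locus, and ended at 8732554. Joined, the 3 loci gave 46 exons and 6843 bases, against 48 exons and 6666 bases in the mouse, that is 103% of the mouse length, and 65.3% for the best locus alone.

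CACNA1I, a T-type channel, had its 17-exon best locus between a piece of 14 exons 1.27 kb away and a piece of 3 exons 0.263 kb away, and a further locus of 1 exon on scaffold 10393. With its pieces it reached 5913 bases, 89.6% of the mouse, against 40.6% for the best locus. CACNA1F, the L-type channel of photoreceptors, was followed after 0.038 kb by a piece of 3 exons, and with it had 102% of the mouse length, against 89.7% for the best locus. CACNA1G reached 94.4% with its piece, against 80.9% without it. CACNA1B, the N-type channel of nerve terminals, was different: its 2 loci of 2 exons each lay 44.6 kb apart and came to 816 bases, 11.7% of the 6984 coding bases in the mouse.

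In SCN4A the best locus of 20 exons had a 2-exon piece on each side, 0.033 kb and 1.25 kb away, and the 3 loci together had 24 exons, as in the mouse, and 91.6% of the mouse length. SCN8A had 25 exons and 98.0% with its piece, against 65.2% without it, with 26 exons in the mouse. SCN1A remained short with its piece, at 65.5%, against 47.6% without it.

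Pieces also added length in potassium and TRP channels. KCNU1, a potassium channel of sperm in mouse and human, had a best locus of 20 exons with 65.7% of the mouse length, and its 8-exon piece 42.8 kb downstream brought it to 28 exons and 95.2%, with 27 exons in the mouse. KCND1 and KCND3, the A-type subunits, reached the exon number of the mouse with their pieces, 6 and 7. KCNH3 had 109% with its piece and 58.3% without it, and KCNH6 had 116% with and 91.6% without. With its piece KCNH6 had 9 exons, against 13 in the mouse, and its best locus named a reference interval of 1286 bases for 2610 coding bases. TRPM1, the channel of retinal bipolar cells, had 78.3% with its piece and 47.3% without it.

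The same-interval loci were fewer and differed in kind. P2RX4, an ATP receptor, had a pair of multi-exon models on the same strand of scaffold 27, 10.4 kb apart, with 12 and 14 exons. Their reference intervals overlapped by 98.8%, and the second had 99.4% of the score of the best locus. P2RX4 is among 8 of the 159 ion channel genes that are not named in the later mole assembly, a count not set against all symbols here. The others include ASIC2, KCNJ18, KCNK9, SCN2A, TRPC2 and TRPV6. CLCN4 had a 1-exon model of the opposite strand inside the span of its best locus. TRPA1, an irritant receptor, had a 1-exon locus on scaffold 9 and a 2-exon locus on scaffold 12673, with 15.4% and 8.28% of its best score. TRPC7 had a 4-exon locus on scaffold 1 with 21.3% of the score of its best locus on scaffold 3. TRPM4 had an 8-exon model 5.29 kb away, with positions inside those of the best locus but on another reference transcript. The extra loci of TRPC7 and PIEZO2 also named another reference transcript than their best loci. KCNH4 had a neighbour with an overlap of 27.2% by positions on different reference transcripts, between the limits of both classes.

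Models of both mechanically gated PIEZO channels met at a place away from their best loci. PIEZO1 had its best locus on scaffold 26 and PIEZO2 on scaffold 3, while loci named PIEZO1 (6 exons, starting at 1765696), PIEZO2 (5 exons, starting at 1781919) and PIEZO1 (3 exons, ending at 1807641) stood in a row on the same strand of scaffold 2. Their scores were 7.85%, 4.63% and 16.6% of the best score of their symbol. The reference intervals of the PIEZO1 pair did not overlap that of the best locus, which held 11 exons and 37.3% of the mouse length.

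The members without a gene line of their own numbered 13. They included CACNA1H, CACNG4, CACNG8, KCNE5, KCNG2, KCNJ12, KCNK18, KCNT1, P2RX2 and TRPV5. Of the 13, 11 are named in the later mole assembly, and KCNJ12 is not. The mouse annotation names 12 (not KCNE5), and for these the nearest genes on either side that are named once in both annotations were looked up in the mole. Both flanks lay on the same scaffold for 10, with no gene line between them for 5. The lines between the flanks of KCNG2 were 2 loci named CTDP1, and those of P2RX2 were 2 loci named POLE. CACNG4, which lies between CACNG1 and CACNG5 in the mouse, would fall in an interval of 117 kb without any gene line on scaffold 28, against 161 kb in the mouse. The interval for CACNG8, between CACNG7 and CACNG6, was 37.7 kb in the mole and 57.7 kb in the mouse. For KCNK18, the empty interval between VAX1 and SLC18A2 was 64.3 kb in the mole and 91.3 kb in the mouse.

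Beside or in some of the missing positions a related name or a model without a symbol was found. KCNJ12 lies beside MAP2K3 in the mouse, and the mole gene next to MAP2K3 on scaffold 25 was KCNJ18, 90.03 kb away with 2 exons and 1593 coding bases. It lay outside the interval between MAP2K3 and TNFRSF13B, the mouse flanks of KCNJ12, on the other side of MAP2K3. That interval held USP22, DHRS7B, TMEM11 and NATD1 in the mole. KCNJ12 and KCNJ18 are near-identical in human, and the mouse annotation has no gene named KCNJ18. In the place of TRPV5, the epithelial calcium channel beside TRPV6, the mole had 5.99 kb with 1 model without a symbol, against 50.2 kb in the mouse. That place was bounded by the end of the TRPV6 model, so its size depends on where that model ends. The TRPV6 model spanned 51.5 kb with a longest intron of 43.2 kb, against a coding span of 15.2 kb in the mouse. Whether it reaches into the place of TRPV5 was not tested. Both flanks of CACNA1H and of KCNT1 had loci, on different scaffolds.

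The coding length of 157 ion channel genes could be set against the mouse gene of the same name. The median was 97.4% of the mouse length (quartiles 75.2% and 100.5%), against 100% over 14328 symbols (87.5% and 105.4%). Fewer than 80% of the mouse bases were found for 47 of the 157 (29.9%), against 18.8% of all symbols. With the pieces joined the number was 39 (24.8%), against 16.7%. Among genes of at least 3000 mouse coding bases the short ones numbered 19 of 42 (45.2%), against 569 of 2104 (27.0%) over all symbols, and joining the pieces left 12 of 42 (28.6%), against 20.9%. Just below the limit stood TRPC4 at 79.4% and KCNQ3 at 79.0%, and just above it P2RX7 at 80% and KCNN4 at 80.2%.

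**Figure D3:**
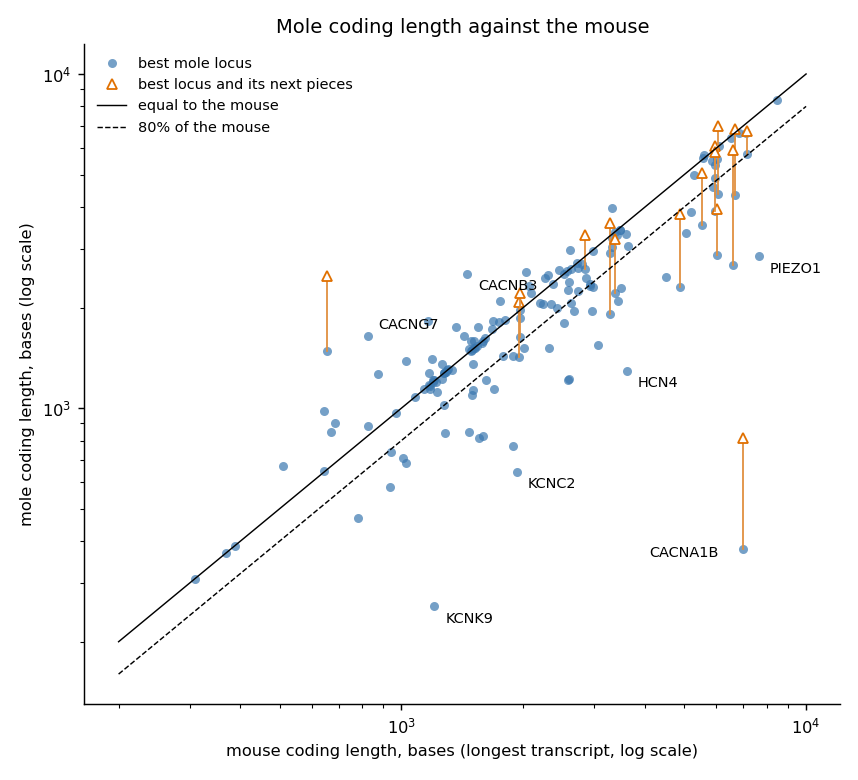
Coding length of the best mole locus (y axis, bases, log scale) against the longest mouse coding transcript (x axis, bases, log scale) for 157 ion channel genes; triangles add the next pieces in line, joined to the best locus by an orange line. CACNA1B lies farthest below the lines, at 378 bases in the mole against 6984 in the mouse.

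Short models were spread unevenly over the families. They made up 14 of 38 Kv genes, 6 of 10 sodium channel alpha subunits, 5 of 13 K2P genes, 3 of 5 ASIC genes, 3 of 9 calcium channel alpha-1 genes, 3 of 8 TRPM genes, 2 of 4 HCN genes and 1 of 14 KCNJ genes, and none of the 5 TRPV, 6 P2RX, 4 KCNE or 4 SCNxB genes. Joining pieces brought sodium channel alpha subunits to 3 short of 10 and calcium channel alpha-1 genes to 1 of 9. The 5 lowest values were 5.41% in CACNA1B, 21.1% in KCNK9, 33.5% in KCNC2, a Shaw-type channel of fast-spiking neurons, 36.0% in HCN4, the main pacemaker subunit of the heart, and 37.3% in PIEZO1. Among the highest were 200% in CACNG7 and 173% in CACNB3.

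In CACNG7 the reference interval covered little of the coding length, 36.5%, against a median of 97.0% over the ion channel genes and 96.8% over all symbols. It covered less than 50% in 9 of 159 ion channel genes (5.66%), against 6.78% of all symbols. The lowest of the 9 was CACNG1, with 25.3%.

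Exon number equalled the mouse in 53 of 157 ion channel genes (33.8%), against 39.3% of all symbols. It did so in 12 of 14 KCNJ genes, 3 of 4 KCNE genes and 4 of 6 CACNG genes, and in none of the 10 sodium channel alpha subunits, 8 TRPM or 4 HCN genes. The mole had fewer exons in 79 of the 157 genes and more in 25. Over all 14328 symbols compared it had fewer in 5345 and more in 3349. Among the genes with more exons the widest margins were at KCNJ4 (7 in the mole and 1 in the mouse) and KCNS1 (6 in the mole and 2 in the mouse). TRPM5 had 98.0% of the mouse coding length in 8 exons, against 24 exons in the mouse, but its reference interval held 1965 bases for 3405 coding bases. The median mole span was 0.747 of the mouse coding span, against 0.860 over all symbols.

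Genes of nociception and touch were described by name as a set, since their roles in sensory neurons are well known in mouse and human. TRPV1, the heat and capsaicin receptor, had 15 exons and 100.4% of the mouse length, TRPA1 had 27 exons as in the mouse and 99.97%, and the cold receptor TRPM8 had 23 exons and 97.7%, against 24 exons in the mouse. PIEZO2, the touch channel, had 98.9% of the mouse length. The sodium channels of pain neurons had 82.0% in SCN9A, 78.3% in SCN10A and 93.9% in SCN11A. The acid sensor ASIC3 was the shortest of the set at 51.9%, with 3 exons against 11 in the mouse, and the ATP receptor P2RX3 was longer than the mouse at 118%. All but TRPA1 and PIEZO2 had a single locus.

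Ion channel genes formed 19 clusters, defined as runs with at most 3 other gene lines between consecutive members. The clusters held 45 of the 159 genes (28.3%). No such share was counted for other gene sets, so it is not shown to be particular to ion channel genes. In 15 of them all genes were of the same family, and 13 had no other locus between their members. The largest was the run SCN3A, SCN2A, SCN1A, SCN9A and SCN7A on scaffold 1 from 41975547 to 43173712, with CSRNP3, GALNT3, TTC21B and a locus named ATP5J between them. SCN10A and SCN11A belonged to another sodium channel run on scaffold 12, 62.5 kb apart on the same strand. The Shaker genes formed 2 runs, KCNA10, KCNA2 and KCNA3 over 138 kb and KCNA5, KCNA1 and KCNA6 over 218 kb. KCNK16, KCNK17 and KCNK5 stood in a row over 116 kb, and KCNK17 has no counterpart by name in the mouse annotation.

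The other 14 clusters were pairs. Within a family they were SCN4B and SCN2B, TRPV3 and TRPV1, P2RX4 and P2RX7, CACNG1 and CACNG5, CACNG7 and CACNG6, KCNE1 and KCNE2, and, among the inward rectifiers, KCNJ16 and KCNJ2, KCNJ5 and KCNJ1, KCNJ15 and KCNJ6, and KCNJ9 and KCNJ10. In 4 pairs the families differed: TRPM5 and KCNQ1, the cardiac slow potassium channel, TRPA1 and KCNB2, CACNA2D4 and CACNA1C, and CACNA1D and CACNA2D3.

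The mouse had 17 of the 19 clusters with the same order and orientation, a count not set against clusters of other genes. The exceptions were the KCNK run, through KCNK17, and CACNA1D with CACNA2D3, which are 465 kb apart in the mole and 320 kb in the mouse. By the same definition the mouse had 21 clusters, and 5 of them were not joined whole in the mole. Of these 5, the runs of CACNG1, CACNG4 and CACNG5, of CACNG7, CACNG8 and CACNG6 and of TRPV6 and TRPV5 each lacked the member without a mole gene line, and KCNH2 and ASIC3 had more than 3 gene lines between them.

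Distances inside clusters were mostly close to those of the mouse. KCNJ5 and KCNJ1 were 71.6 kb apart in the mole and 71.1 kb in the mouse, KCNA1 and KCNA6 92.5 kb in the mole and 94.98 kb in the mouse, and SCN2A and SCN1A 516 kb in the mole and 508 kb in the mouse. By the ratio of the distances, the widest differences were at CACNA2D4 and CACNA1C, 176 kb in the mole and 40.4 kb in the mouse, P2RX4 and P2RX7, 53.5 kb in the mole and 16.4 kb in the mouse, and TRPA1 and KCNB2, 180.2 kb in the mole and 394 kb in the mouse. In kb, CACNA1D and CACNA2D3 also differed widely, as given above. In the P2RX pair the second P2RX4 model lay within the distance, and CACNA2D4 had 60.9% of the mouse coding length.

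**Figure D4:**
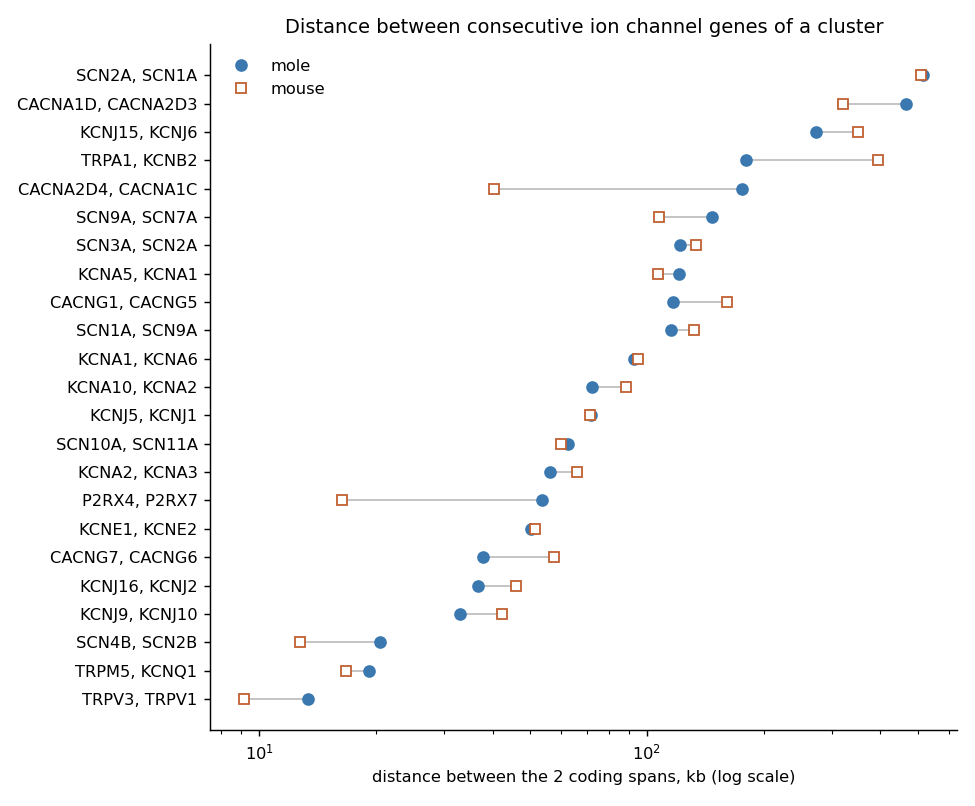
Distance in kb (log scale) between the coding spans of consecutive ion channel genes of a cluster in the mole (filled circles) and in the mouse (open squares), for 23 of the 24 pairs named in both. CACNA2D4 with CACNA1C and P2RX4 with P2RX7 lie farther apart in the mole than in the mouse, and TRPA1 with KCNB2 closer.

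Of the ion channel genes named once in both annotations, with a neighbour on each side that is too, 114 of 130 (87.7%) kept both neighbours of the mouse in order and orientation, against 88.4% over all symbols. A further 15 kept 1 neighbour, and TRPM5 kept neither. In the mouse annotation the coding span of TSSC4 lies inside that of TRPM5, which orders TSSC4 by its start between TRPM5 and KCNQ1, and in the mole TSSC4 lay 0.110 kb from TRPM5 on its other side, with KCNQ1 19.2 kb away. The later mole assembly has TRPM5 next to both. Of the 16 lost pairs 7 were neighbours in the later assembly too, among them KCNJ11 with NUCB2, KCNH2 with AOC1, KCNK16 with KIF6 and TRPM7 with TNFAIP8L3. Another 7 were not neighbours there: CACNA2D3 with ACTR8, KCNE3 with GNB1, KCNQ5 with OOEP, KCNT2 with B3GALT2, SCN3B with TMEM225, TRPC5 with NUP35 and TRPC6 with INSR. The remaining 2, KCNK2 with CCDC74A and KCNK6 with GGN, could not be compared there.

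Space around a gene, the sum of the distances to the nearest non-overlapping gene line on each side, had a median of 83.3 kb for ion channel genes (quartiles 23.9 and 229.6 kb), against 49.8 kb over 15954 symbols. The 95% interval of the median, from order statistics, was 55.4 to 113.6 kb for ion channel genes and 48.3 to 51.2 kb over all symbols. Among families of at least 5 genes the highest medians were 342 kb for TRPC, 149 kb for KCNN, KCNT and KCNU, 135 kb for sodium channel alpha subunits and 126 kb for Kv genes, and the lowest were 19.6 kb for P2RX, 20.05 kb for CLCN, 23.8 kb for ASIC and 26.3 kb for TRPV genes. The most space was found around KCNJ2, an inward rectifier of heart and muscle, with 1459 kb, KCNJ3 with 1277 kb and KCNN2 with 724 kb. The least was around KCNK4, a mechanosensitive K2P channel, with 0.939 kb, SCN4A with 1.29 kb and CACNA1I with 1.53 kb. SCN4A and CACNA1I were bounded by their own pieces, and with other loci of the same symbol not counted they had 31.9 kb and 121 kb. Another locus lay inside the span of 6 ion channel genes (3.77%), against 2.77% of all symbols, among them CACNA2D3, CACNB2, CLCN4, KCNK10 and TRPC1.

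The score per reference base had a median of 1.32 for ion channel genes (quartiles 1.11 and 1.46), against 1.25 (0.998 and 1.43) over all symbols. Family medians were highest in CACNB at 1.51, TRPC at 1.48 and CACNA2D at 1.47, and among families of at least 4 genes lowest in sodium channel alpha subunits at 1.02, their beta subunits at 1.04 and TRPM at 1.07. The 3 highest genes were CACNG2 with 1.70, KCNG3 with 1.66 and KCNJ3 with 1.63, and the 3 lowest TRPM5 with 0.290, KCNH2 with 0.386 and KCNC1 with 0.410. KCNC1 named a reference interval of 4808 bases for a coding length of 2097, so its low value came with a long interval. A value below 1 was found in 28 of 159 ion channel genes (17.6%), against 25.1% of all symbols, and in 5 of 10 sodium channel alpha subunits.

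**Figure D5:**
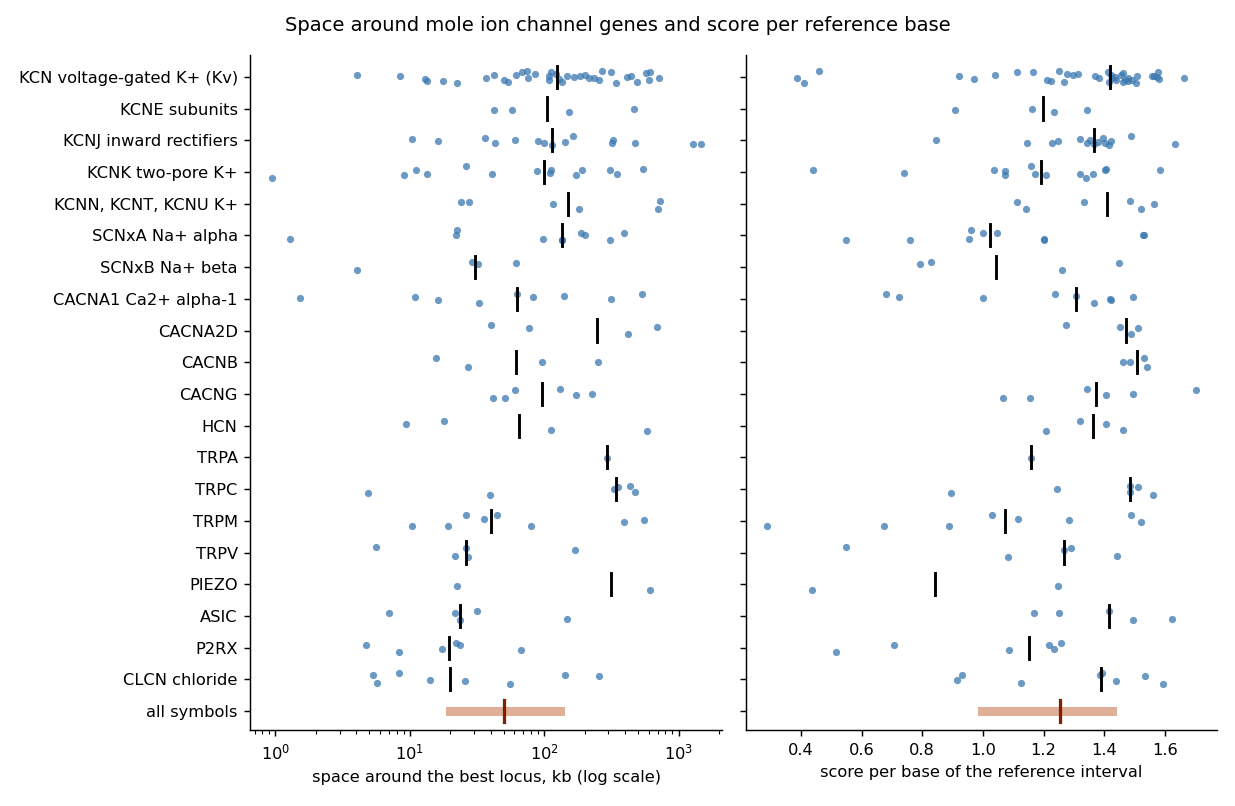
Space to the nearest gene lines in kb (left, log scale) and score per base of the reference interval (right) for the best mole locus of each ion channel gene, 1 point per gene, by family; black ticks are family medians, and the bottom row gives the median and quartiles over all symbols. TRPC genes have a median of 342 kb of space and P2RX genes 19.6 kb.

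Other channel genes outside the naming rule were counted in the same way. Of 40 such genes in 5 lists (partners of potassium channels, epithelial sodium channels, CatSper subunits of sperm, cyclic nucleotide-gated channels, and polycystin, mucolipin, lysosomal, leak and proton channels) 37 had a locus, 5 had several, and 1, KCNAB1, had a next piece in line. Of the 36 with a mouse counterpart 8 were short, with TPCN2, a lysosomal channel, lowest at 16.0% and CNGA1, the rod photoreceptor channel, at 45.7%.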

How the data were processed

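The series measured gonad RNA in 35 libraries. The processed file used here is the mole genome annotation talOcc3, whose start and end columns are 1-based positions as deposited, and whose score column was deposited by the authors on transcript lines. Model lines bear the labels EVM, exonerate or ALN, and their making is not given in the sources at hand. Per the submitters' processing notes, tools and builds include STAR 2.6.1d and mm9, with no role stated. No column belongs to a library, so library depth is unknown and expression is not analysed here; 0 columns of per-sample values were left unused.

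Transcript and coding lines were attached to each gene line. Computation used Python 3.11.15, numpy 2.4.6 (medians), scipy 1.17.1 (intervals of medians) and matplotlib 3.10.9 (figures). Percentages for all symbols come from the same steps over the whole file. Symbols were compared with GENCODE M21 (GRCm38) by upper-case name. Coding length, exons and span were compared for the best locus of each symbol named once in the mouse, also where the mole had several loci. Neighbours were compared for genes named once in both annotations. The later assembly served only for names and neighbours. Some members enter the counts and are not reported here by name. The steps were tested on simulated gene models. Members, lists and definitions were chosen with earlier results of these data known. Genes are not replicates of a condition, so no p-value is given. Named genes were those without a locus or with several, cluster members, the extremes of each family in exons and span, the extremes of space, mouse percentage and score, those losing a mouse neighbour, and a set of sensory and sperm channels. A planned search of channel signature motifs in reference proteins was not run, since no protein table was used here, and no sequence is printed. Exons here are coding parts of 1 model per line, and gaps in the assembly were not examined.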

Additional observations from a re-analysis of the deposited data

How the results depend on the processing

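Of 47 alternatives for the overall values 6 moved, that is a count changed by over 1.5 times or a median left the 95% interval of the main median, which is wide in small families. The number of ion channel genes with several loci was 9 (5.66%, against 8.11% of all symbols) when a locus needed at least 50% of the best score and 11 (6.92%, against 11.0%) when next pieces were not counted, both below all symbols where the main share was above. Single exons over every locus likewise came to 10.4%, against 20%, the median exon number over every locus was 6 in both, and with 1 other gene allowed between neighbours 91.5% kept both, against 90.6%. Next pieces numbered 10 of 33 (30.3%), against 8.18% over all symbols, when the same reference transcript was required. Counting neighbours of the gene's own strand alone, median space was 172 kb (141 kb over all symbols). The median score per base was 1.20 (1.10 over all symbols) with coding length as the denominator. Short genes numbered 31 (19.7%, against 11.3% over all symbols) against the mouse transcript nearest in length. Over every locus, calcium channel alpha-1 genes had medians of 14 exons, 2604 coding bases and a span of 15.9 kb, and median spans were 48.5 kb for KCNN, KCNT and KCNU, 36.7 kb for TRPC and 21.2 kb for TRPM genes. Why ion channel genes and all symbols moved by different amounts was not tested. The alternatives that join pieces, leave out own loci or require the same reference transcript were chosen after seeing the data.

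No paired analysis was possible because every deposited value describes the genome and none a library. The planned search for channel signatures in reference proteins was not run. A gene without a line in this annotation is not thereby absent from the mole genome, and a piece, a short model or a lost neighbour cannot be told apart here from how the assembly and its models were built.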
